A study of Homo sapiens with 20 samples.

Results

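Dexamethasone-enriched binding sites of BCOR at promoters are described here, with the expression of the genes that start beside them. The authors listed 3055 BCOR ChIP-seq peaks as dex-enriched, and 213 of them (6.97%, Wilson 95% interval 6.12 to 7.93%) had their centre within 1000 bp of the transcription start site (TSS) of a transcript in the deposited count table, on chromosomes 1 to 22 and X. These 213 of 11909 peaks in all 3 lists lay at the starts of 234 of 27896 gene symbols. The rule itself uses peak positions and no RNA value.

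The line used throughout, HEK293-GR, derives from human embryonic kidney and expresses the glucocorticoid receptor (GR) constitutively. Cells were kept for 48 h in medium depleted of steroids. For RNA, 4 groups of 4 libraries each were made: cells with a control siRNA pool (siNON) or with a pool against BCOR (siBCOR), at 20 nM for 72 h, that received 100 nM dexamethasone (dex) or ethanol vehicle for 6 h. BCOR ChIP-seq was made without siRNA from 2 libraries after 1 h of 100 nM dexamethasone and 2 after 1 h of ethanol. Binding was thus measured 1 h and RNA 6 h after the hormone, in 1 line in which every group carries the added receptor.

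Dexamethasone is a synthetic glucocorticoid that activates GR, a ligand-dependent transcription factor which binds DNA as a dimer at a palindromic response element and, in most cells, far more often at enhancers than at promoters. BCOR is a corepressor found in a variant Polycomb complex, PRC1.1, that is brought to unmethylated CpG-rich promoters by its subunit KDM2B and ubiquitinates histone H2A. It was first described as a partner of the repressor BCL6.

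The promoters of 4 genes are shown first, because they combine a peak that covers the bases just before the start with a change of RNA of at least 2-fold in the hormone. Each run is the 250 bases before the start in RefSeq's annotation of GRCh38.p14, on the plus strand of chr4:6693628-6693877, chr3:156674340-156674589, chr7:121328750-121328999 and chr2:205682251-205682500, 5′ to 3′. Capitals mark the only full glucocorticoid response element found in them, searched as GNACA and TGTNC with 3 free bases between them. The peaks are given in hg19 and the 2 builds were not aligned here, so the runs show the promoters and not the exact bases of a peak.

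S100P: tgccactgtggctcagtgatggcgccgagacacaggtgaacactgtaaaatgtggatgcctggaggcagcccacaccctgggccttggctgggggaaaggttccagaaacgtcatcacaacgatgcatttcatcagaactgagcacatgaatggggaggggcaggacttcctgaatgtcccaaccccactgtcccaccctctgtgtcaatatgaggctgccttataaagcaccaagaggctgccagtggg
TIPARP: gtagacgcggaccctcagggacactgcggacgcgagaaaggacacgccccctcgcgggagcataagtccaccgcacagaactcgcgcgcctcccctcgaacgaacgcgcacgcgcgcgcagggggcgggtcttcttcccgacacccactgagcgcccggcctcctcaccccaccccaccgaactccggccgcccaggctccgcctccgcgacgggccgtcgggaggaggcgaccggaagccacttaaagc
WNT16: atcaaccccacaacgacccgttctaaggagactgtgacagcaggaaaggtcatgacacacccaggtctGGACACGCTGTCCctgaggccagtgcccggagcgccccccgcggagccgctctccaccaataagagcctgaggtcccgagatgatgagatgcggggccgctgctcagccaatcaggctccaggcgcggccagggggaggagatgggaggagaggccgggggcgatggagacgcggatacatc
NRP2: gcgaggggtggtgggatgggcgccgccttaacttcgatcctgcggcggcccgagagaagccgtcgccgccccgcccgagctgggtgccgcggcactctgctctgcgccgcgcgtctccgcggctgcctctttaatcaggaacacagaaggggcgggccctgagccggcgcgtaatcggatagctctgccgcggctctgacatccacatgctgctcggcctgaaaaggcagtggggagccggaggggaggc

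The WNT16 element, GGACACGCTGTCC, lay 182 to 170 bases before the start, and the centre of the BCOR peak lay 197.5 bp before the start in hg19. In hg19 the peaks covered 106 of the 250 bases before the start of S100P, 230 at TIPARP, 220 at WNT16 and 155 at NRP2. Between RefSeq and hg19 the distance from start to gene end differed by 39 bp at S100P, 172 at TIPARP, 36 at WNT16 and 3 at NRP2. The TIPARP run may therefore precede a start other than the one beside the peak. GC content was 55.6% in the S100P run, 71.6% in TIPARP, 64.8% in WNT16 and 70% in NRP2. Another 2 genes met the same criteria: SPINK13, with 1 to 48 reads a group, and TMEM91, whose most-read transcript starts elsewhere. Their runs held the half-site AGAACA, in SPINK13 232 to 227 and in TMEM91 120 to 115 bases before the start, and no full element.

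The 16 RNA libraries held 18580294 to 28054808 counts over the transcripts used. Values below are CPM, the counts of a gene scaled to a common library size, given in the order of replicates 1 to 4. Changes in brackets are log2 fold changes ± standard error, with p-values adjusted over all genes tested. For BCOR itself, the target of the siRNA, they were 227, 210.3, 159 and 189 for siNON without hormone and 96.8, 102, 106 and 70.6 with it. The depleted cells had 23.5, 22.3, 21.8 and 21.9 without hormone and 15.5, 14.8, 14.9 and 13.8 with it. In vehicle the siRNA left BCOR 8.77-fold lower (-3.13 ± 0.123, adjusted p = 1.11e-10), and under dexamethasone 6.36-fold lower (-2.67 ± 0.123, adjusted p = 1.51e-09). Control and depleted libraries did not overlap, and the hormone also lowered BCOR in siNON cells (-1.06 ± 0.113, adjusted p = 1.45e-06). NR3C1, the gene of GR, was lowered by the hormone in siNON cells (-0.50 ± 0.054, adjusted p = 1.8e-06) and was higher after depletion in dexamethasone (0.29 ± 0.0539, adjusted p = 0.000875). Markers of the kidney line (VIM, KRT8, KRT18) were expressed, and those of immune cells and liver (PTPRC, CD3E, ALB, APOA1) and the fibroblast genes DCN and LUM were at or under 0.475 CPM in every library, while the fibroblast collagen COL3A1 stood at 3.37 to 6.26 CPM in the group means. The endothelial genes PECAM1 and VWF reached at most 0.778 and 1.53 CPM. In siNON dex replicate 4 and siNON vehicle replicate 3, genes lay farthest from their group means (root mean square 0.280 and 0.266 on the log2 scale, against 0.143 to 0.257 in the others). What set these libraries apart is not given in the labels, and results that move without them are given both ways.

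**Figure D1:**
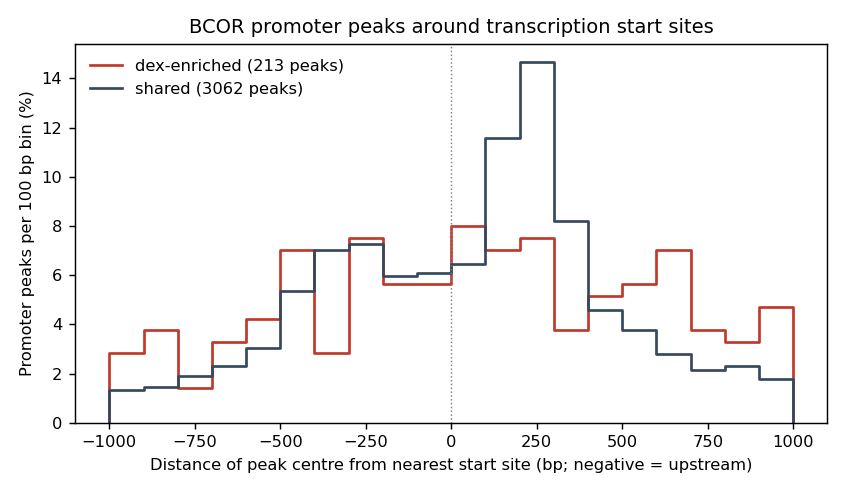
Share of promoter peaks in each list (y axis, percent per 100 bp bin) against the distance of the peak centre from the nearest TSS (x axis, bp, upstream negative), for 213 dex-enriched and 3062 shared peaks. The shared peaks are densest 100 to 300 bp downstream, while the dex-enriched ones are spread over the window, with a median distance of 404.5 bp against 292 bp.

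Promoters were a small fraction of the dex-enriched list. Of 8587 peaks that the authors list as shared by both treatments, 3062 (35.7%, Wilson 95% interval 34.7 to 36.7%) met the same rule, and of 267 vehicle-enriched peaks 130 (48.7%, 42.8 to 54.7%). These intervals cover counting error only. The rule by which the authors assigned peaks to lists is not given in the sources used here. The dex-enriched promoter peaks were 335 to 536 bp wide (median 335). Their centres lay upstream of the nearest start in 94 and downstream in 119. In 69 the centre was within 250 bp of the start and in 85 it was over 500 bp away, and the median distance of 404.5 bp compares with 292 bp for shared and 231.5 bp for vehicle-enriched promoter peaks. The plot of distances shows this wide spread around the start, without the peak of density that shared sites have just downstream.

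Most of these sites had no shared peak within 50 kb. No dex-enriched promoter peak overlapped a shared peak, 9 had a shared peak within 1000 bp, and 123 had none within 50 kb (median distance 68980 bp). A further dex-enriched peak lay within 50 kb of 43. Just inside the limit of the rule were peaks 998.5 bp from ERCC5, 999.5 bp from ST8SIA6 and 1000 bp from LOC101930370, and just outside it peaks 1006.5 bp from MOSPD1, 1010.5 bp from LOC101929710 and 1018.5 bp from MTNR1A. One gene was beside 191 peaks and a pair of genes beside 22, in 21 of these on opposite strands. Of the 234 genes 185 code for protein. The most-read transcript started at the peak in 199, and in the other 35 the peak lay at another start of the gene. A shared peak lay within 1000 bp of a start in 21 genes as well.

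Of the 234 genes 200 had enough reads to be tested, 182 of them protein-coding, and 34 did not, among which 7 had no read in any library. Those not tested were mostly long noncoding RNAs (such as MANCR and PCAT29) and microRNA and small nucleolar RNA genes. Per kilobase of transcript, the tested genes had a median level of 6.16 CPM per kb in siNON vehicle, against 6.38 over all 16432 genes tested and 8.30 at shared promoter peaks alone. Levels in bulk RNA do not tell fewer cells with a transcript from less of it in each cell. The count columns carry the word flip in their names, but whether reads were counted by strand is not given in the sources used here. Reads of genes that overlap on opposite strands may therefore not have been told apart.

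With dexamethasone in siNON cells, 56 of the 200 genes rose (28%) and 11 fell (5.5%) by edgeR's quasi-likelihood test at an adjusted p under 0.05. Over all genes tested 10.7% rose and 8.64% fell. At least 2-fold, 19 rose (9.5%) and 2 fell, where over all genes 2.4% rose and 1.38% fell so far. The median log2 fold change was 0.12 at these peaks and 0.00 over all genes. At promoters with a shared peak and no dex-enriched one, 374 of 3110 rose (12%) and 357 fell (11.5%), and at vehicle-enriched ones 16 of 149 rose and 14 fell. In the chart of shares, the bars for higher calls in both hormone responses stand well above those of the other gene sets, and the gap is smaller for depletion in dexamethasone.

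**Figure D2:**
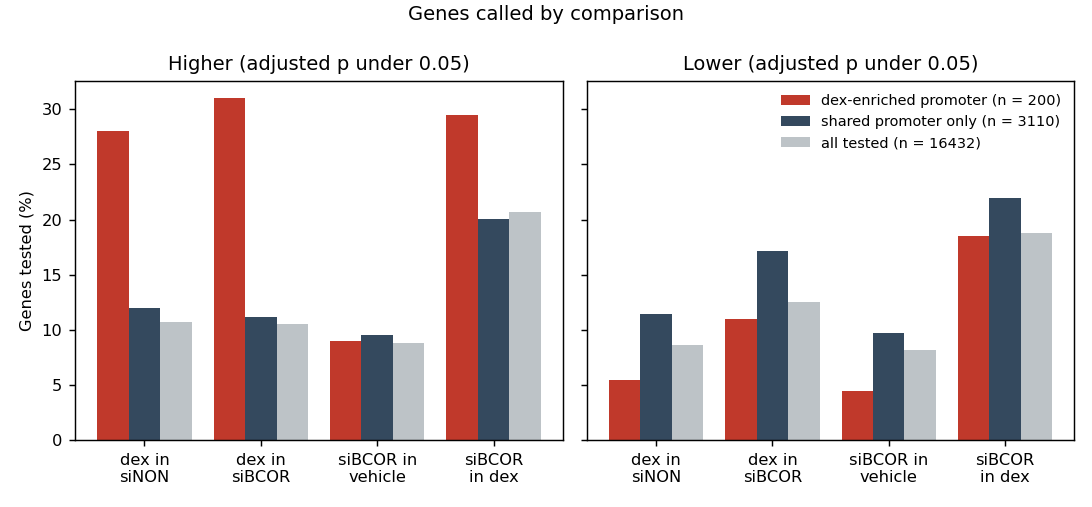
Share of tested genes (y axis, percent) called higher (left) or lower (right) in each of 4 comparisons, for 200 genes at dex-enriched promoter peaks, 3110 at shared promoter peaks only, and all 16432 tested. In siNON cells 28% of the first group rose with hormone, against 12% and 10.7%.

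A member can pass the filter on low reads only with its dex libraries, where fewer than 4 vehicle libraries reach the minimum. Such a gene may be kept because it is higher with hormone. This held for 7 genes (C6orf223, ELSPBP1, JPH4, NME9, PGC, ROPN1L and SPINK13), 4 of which rose. Without genes of this kind 52 of 193 rose (26.9%), against 10.4% of all others tested, and 15 rose at least 2-fold (7.77%, against 1.83%). The median and counts above are over the tested genes, not all 234.

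The largest rise was in S100P, a small calcium-binding protein of the S100 family (chromosome 4, 6695566 to 6698897; peak 6695088 to 6695422, hg19, centre 311.5 bp upstream). It stood at 0.518, 0.822, 0.338 and 0.406 CPM in siNON vehicle and 116, 105, 131 and 106 in siNON dex, 220.2-fold higher (7.78 ± 0.152, adjusted p = 9.25e-16). In siBCOR cells it went from 0.671, 0.916, 0.692 and 0.789 CPM to 66.6, 62.4, 66.7 and 60.9 with the hormone (6.38 ± 0.144, adjusted p = 3.55e-15). All 4 hormone libraries were above all vehicle libraries in both kinds of cell, and the siBCOR dex libraries were all below the siNON dex ones.

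PDK4, a kinase that inhibits pyruvate dehydrogenase and so spares glucose (chromosome 7, 95212809 to 95225925), had a peak 622.5 bp upstream and another 2 dex-enriched peaks within 50 kb of a start. Its levels were 5.14, 7.16, 6.73 and 5.6 CPM in siNON vehicle and 242, 249, 218 and 281 in siNON dex (5.33 ± 0.118, adjusted p = 2.95e-15). In the depleted cells hormone took PDK4 from 6.67, 5.55, 6.63 and 7.05 to 410.0, 340.0, 388 and 357 CPM (5.85 ± 0.12, adjusted p = 2.01e-15). Hormone and vehicle libraries did not overlap, and here the siBCOR dex libraries were the highest of all.

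TIPARP, an enzyme that adds single ADP-ribose units and restrains the aryl hydrocarbon receptor (chromosome 3, 156392205 to 156424557), had its peak 187.5 bp upstream. It went from 26.9, 29.7, 36.8 and 29.9 CPM in siNON vehicle to 881, 879, 794 and 1046 in siNON dex (4.87 ± 0.122, adjusted p = 5.6e-15), and from 41.4, 29.5, 39.5 and 36.4 to 1229, 1151, 1135 and 1185 in siBCOR cells (5.00 ± 0.123, adjusted p = 5.09e-15). Every hormone library was far above every vehicle library. It overlaps TIPARP-AS1 on the other strand.

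WNT16, a secreted Wnt ligand (chromosome 7, 120969090 to 120981158; peak 120968726 to 120969060), is the gene whose promoter above holds the full response element. It stood at 4.14, 5.71, 4.82 and 5.06 CPM in siNON vehicle and 52.2, 54.3, 47.2 and 54.3 in siNON dex (3.40 ± 0.0859, adjusted p = 5.69e-15), and at 5.92, 5.79, 6.08 and 5.85 and 68.9, 64.7, 66.3 and 65.3 in siBCOR cells (3.49 ± 0.085, adjusted p = 5.09e-15). Its 4 siBCOR dex libraries were tightly grouped and all above the siNON dex ones.

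PER1, a repressor of the circadian clock and a known direct GR target (chromosome 17, 8043788 to 8055753), had its peak 531.5 bp inside the gene. It stood at 43.8, 36.2, 30.3 and 40.9 CPM in siNON vehicle and 317, 339, 328 and 232 in siNON dex (3.01 ± 0.138, adjusted p = 1.99e-11), and at 34.7, 39, 33.9 and 36.8 and 271, 252, 307 and 215 in siBCOR cells (2.86 ± 0.137, adjusted p = 4.62e-11). Hormone and vehicle did not overlap, while siNON and siBCOR libraries of the same treatment did. Replicate 4 was the lowest of both hormone groups.

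**Figure D3:**
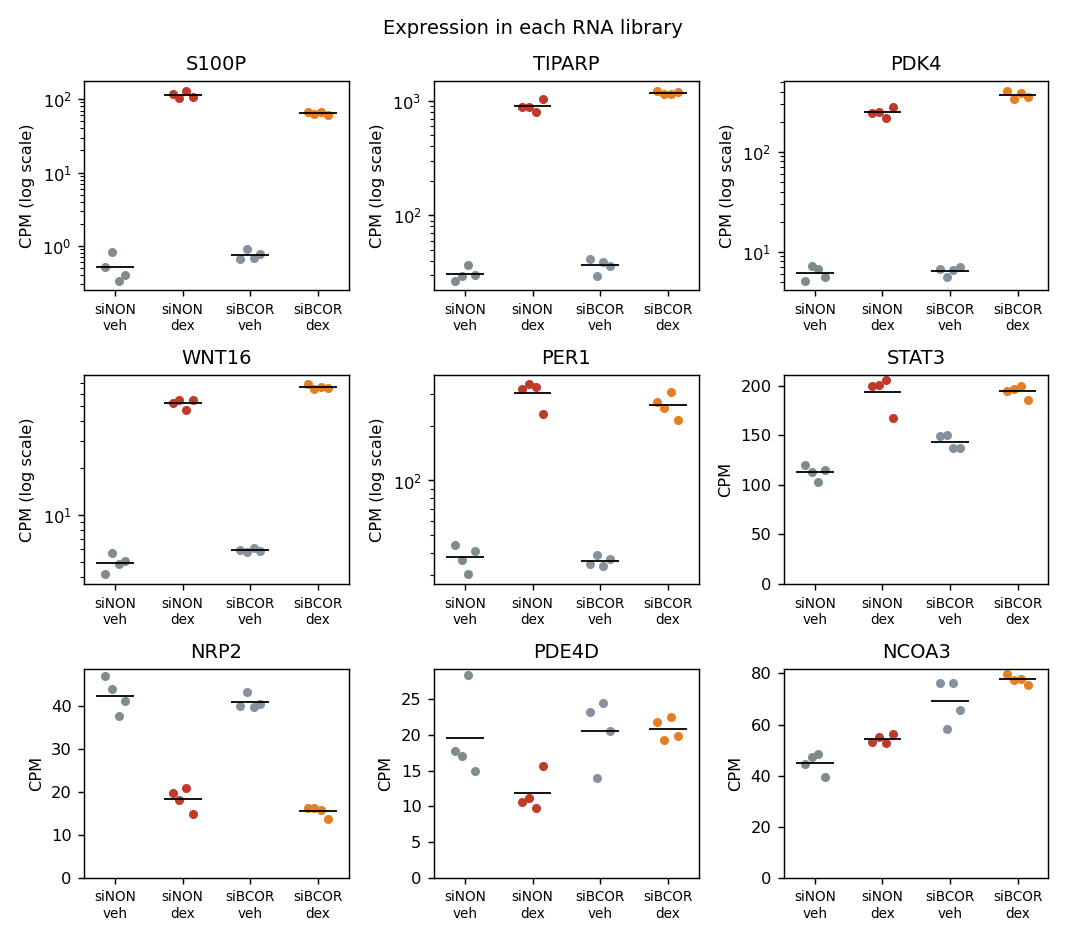
CPM in each of 16 libraries (points) with the group mean (line) for 9 genes at dex-enriched promoter peaks, the first 5 (S100P, TIPARP, PDK4, WNT16, PER1) on a log axis and the others on a linear axis from 0. Hormone groups lie above vehicle groups in the first 5 genes and in STAT3, and below them in NRP2.

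PNMT, which makes adrenaline from noradrenaline, rose from 1.26 ± 0.332 to 10.4 ± 1.21 CPM (mean ± SD, n = 4) in siNON cells (3.05 ± 0.167, adjusted p = 2.27e-10) and from 0.974 ± 0.231 to 8.21 ± 0.99 in siBCOR cells (3.08 ± 0.179, adjusted p = 5.88e-10). JPH4, a junctophilin that ties the endoplasmic reticulum to the cell membrane, rose from 0.256 ± 0.0841 to 4.87 ± 0.8 CPM (4.25 ± 0.221, adjusted p = 1.02e-10), from only 23 reads over siNON vehicle. Neither gene was strongly expressed without hormone. CHST3, a sulfotransferase of chondroitin, rose from 32.9 ± 3.66 to 125 ± 11.7 CPM (1.93 ± 0.0933, adjusted p = 4.26e-11). ZFAND5, a zinc finger protein that activates the proteasome, rose from 64.2 ± 5.25 to 227 ± 11.8 CPM (1.82 ± 0.0736, adjusted p = 3.63e-12). CHST3 and ZFAND5 each had another 2 dex-enriched peaks within 50 kb of a start. SSTR2, a somatostatin receptor, rose from 7.12 ± 0.843 to 17.5 ± 0.836 CPM (1.30 ± 0.0854, adjusted p = 2.68e-09). All of these were higher in each hormone library than in any vehicle library. Among the other genes raised at least 2-fold were PPP1R1B, an inhibitor of protein phosphatase 1 (log2 fold change 2.47), TMEM91 (1.74) and the noncoding C6orf223 (3.96, from 32 reads). PGC, the gastric enzyme precursor pepsinogen C, had 10 reads over the siNON vehicle group and 437 over siNON dex, and is named after its values were seen.

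Some genes of transcription and chromatin rose, others fell (KLF3, RFX6 and L3MBTL3, below) or were not called (KDM2B, PAX6 and REL). EP400, the ATPase of a chromatin remodelling complex (chromosome 12, 132434465 to 132565011), went from 161, 143, 100.0 and 119 CPM to 329, 323, 330.1 and 211 with hormone in siNON cells (1.19 ± 0.16, adjusted p = 2.43e-05), without overlap although replicate 4 of the hormone group was much the lowest. STAT3, a transcription factor of cytokine signalling (chromosome 17, 40465343 to 40540513; peak 842.5 bp inside the gene), stood at 119.8, 113, 103 and 115 and 199.7, 201, 206 and 168 CPM (0.78 ± 0.0675, adjusted p = 1.02e-07), with the same replicate lowest. METTL7A, a methyltransferase of lipid droplets, rose from 46.6 ± 4.43 to 74.3 ± 5.49 CPM (0.67 ± 0.0732, adjusted p = 1.92e-06). NCOA3, a coactivator of nuclear receptors, rose by 0.27 (adjusted p = 0.0289), a call that 5 of 23 other analyses did not keep. Also higher were PHF19, a Polycomb accessory protein (0.54), and TAF5L, a subunit of SAGA-type coactivators (0.82), both named after their values were seen.

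Structural genes among those raised were SUN2, KRT8 and ITGA6. SUN2, which links the envelope to the cytoskeleton and is named after its values were seen, rose from 84.4 ± 6.86 to 162 ± 13.9 CPM (0.94 ± 0.0793, adjusted p = 7.63e-08). KRT8, an intermediate filament keratin and the one gene with 2 of these peaks, rose from 397 ± 39.4 to 572 ± 35.1 CPM (0.53 ± 0.0803, adjusted p = 9.42e-05), though its deposited model overlaps KRT18. ITGA6, an integrin subunit that binds laminin, rose from 50.2 ± 6.44 to 65.4 ± 4.96 CPM (0.38 ± 0.0916, adjusted p = 0.00583).

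Of the 11 genes that fell, NRP2, a receptor of semaphorins and of vascular growth factors (chromosome 2, 206547224 to 206662857), had its peak across the start (centre 12.5 bp downstream). It stood at 47.1, 43.9, 37.7 and 41.2 CPM in siNON vehicle and 19.8, 18.1, 21 and 14.9 in siNON dex (-1.20 ± 0.0984, adjusted p = 5.05e-08), and at 39.96, 43.2, 39.9 and 40.5 and 16.3, 16.4, 15.9 and 13.7 in siBCOR cells (-1.39 ± 0.0991, adjusted p = 9.63e-09). Each hormone library was under each vehicle library. The other gene to fall at least 2-fold was the noncoding LINC01197 (-1.10), named after its values were seen.

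PDE4D, a phosphodiesterase that degrades cyclic AMP, had its peak at an internal start, 324.5 bp upstream of a shorter transcript. Another 4 dex-enriched peaks lay within 50 kb of any of the gene's starts. The dex-enriched peak nearest to the one at the internal start was 148510 bp away. PDE4D stood at 17.8, 17.1, 28.4 and 15 CPM in siNON vehicle and 10.7, 11.2, 9.84 and 15.6 in siNON dex (-0.73 ± 0.199, adjusted p = 0.0138). Its groups overlapped, since siNON dex replicate 4 was above the lowest vehicle library, and the call was lost without siNON dex replicate 3 (adjusted p = 0.0503). It was kept with the 2 libraries that stand apart left out (-0.66, adjusted p = 0.00321). KLF3, a transcriptional repressor of the Krüppel-like family, stood at 30.7, 34.7, 37.5 and 29.8 and 24.7, 23.3, 22.5 and 28.4 CPM (-0.43 ± 0.107, adjusted p = 0.00768). Its divergent neighbour KLF3-AS1, which overlaps it, was not called (0.50). The rest that fell were ANKRD16 (-0.52), KAZN (-0.49), METTL21A (-0.44), RFX6 (-0.41, lost in 5 of 23 other analyses), SH3KBP1 (-0.29), L3MBTL3 (-0.28) and SPRYD3 (-0.20). The calls of L3MBTL3 and SH3KBP1 were lost in 3 and 2 of the 23, and that of SPRYD3 in 15.

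After BCOR depletion, dexamethasone raised 62 of the 200 genes (31%) and lowered 22 (11%), where over all genes tested 10.5% rose and 12.5% fell. At least 2-fold, 19 rose (9.5%, against 2.47% of all) and 1 fell (1.1% of all fell so far), and the median log2 fold change was 0.14. Without the genes that passed the filter only with their dex libraries, 58 of 193 rose (30.1%, against 10.1%), 15 of them at least 2-fold (7.77%, against 1.91%). Both hormone responses were called higher in 42 genes (21%, against 5.99% of all) and lower in 7 (3.5%, against 5.62%). None was called in opposite directions, and 2 of all 16432 genes were. In the scatter of the 2 responses PDK4, TIPARP, WNT16 and PER1 lie near the line of equal response, and S100P, JPH4 and PPP1R1B lie below it.

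**Figure D4:**
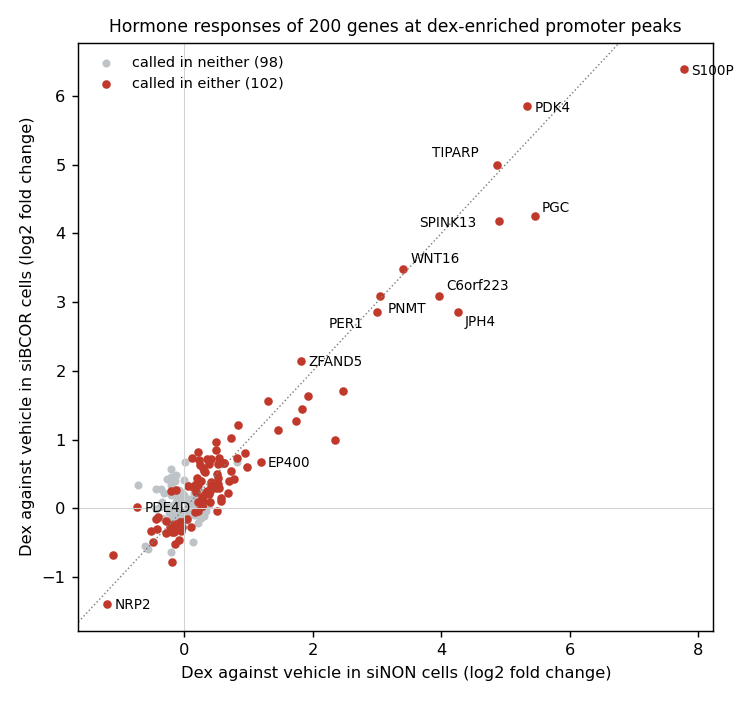
Log2 fold change of dexamethasone against vehicle in siBCOR cells (y axis) and siNON cells (x axis) for 200 genes, red where called in either (102) and grey where in neither (98); the dotted line marks equal response. S100P (7.78 and 6.38) lies farthest out and NRP2 (-1.20 and -1.39) lowest.

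Of the 19 genes raised at least 2-fold in siNON cells, 13 had a smaller and 6 a larger log2 response in siBCOR cells. Of the 15 left without the genes that passed the filter only with their dex libraries, 9 had a smaller and 6 a larger one. These genes were picked by their siNON value, so the counts are a description, and the interaction below tests the difference. Smaller values were those of S100P, JPH4, CHST3, EP400 and PPP1R1B (2.47 and 1.71), and larger ones those of PDK4, TIPARP, WNT16, ZFAND5 and SSTR2. Called higher in siBCOR cells and not in siNON cells were 20 genes, such as FAM199X (0.96), KLF3-AS1 (0.84), the splicing regulator MBNL1 (0.70) and the autophagy gene ATG12 (0.59), the last 3 named after their values were seen. Called lower there and not in siNON cells were 15, among them KDM2B, the DNA-binding subunit of PRC1.1, whose peak lay 101.5 bp inside the gene. Over all 16432 genes tested, 1728 were higher in siBCOR cells, 985 of them in siNON cells too. Lower in siBCOR cells were 2061 of all genes, 923 of them in siNON cells too. KDM2B went from 88.6, 92.3, 84.6 and 91.5 CPM to 77.5, 71.6, 76.3 and 64.8 with hormone in siBCOR cells (-0.30 ± 0.0815, adjusted p = 0.0133), without overlap. In siNON cells its values were 93.8, 85.5, 78.4 and 84.3 in vehicle and 86.2, 82.4, 81.2 and 66.5 in dexamethasone (-0.11 ± 0.0814, adjusted p = 0.388). Further genes lower there were STRA6, a receptor for retinol-binding protein (-0.78), and HEYL, a Notch target gene (-0.45).

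Without hormone, 18 of the 200 genes were higher (9%) and 9 lower (4.5%) in siBCOR vehicle than in siNON vehicle. Over all genes tested 8.87% were higher and 8.23% lower. With the 2 libraries that stand apart left out, these counts were 28 and 17, where 9.22% of all genes were higher and 15.1% lower. Leaving out siNON vehicle replicate 4 gave 11 higher (6.02% of all genes), siNON vehicle replicate 3 gave 14 lower (12.2% of all) and siBCOR vehicle replicate 1 gave 5 lower (5.56% of all). None was higher by 2-fold (0.298% of all genes were), and the 1 that was lower by 2-fold (0.59% of all) was ELSPBP1, a sperm-binding protein of the epididymis with 56 reads over siNON vehicle and 23 over siBCOR vehicle.

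NCOA3 went from 44.7, 47.5, 48.5 and 39.5 CPM in the control cells to 76.1, 58.1, 76.2 and 65.8 in the depleted ones (0.62 ± 0.0833, adjusted p = 0.000119), with every depleted library above every control. COL26A1, a collagen, stood at 6.61, 6.05, 4.95 and 5.96 and 7.53, 11.7, 9.15 and 11 CPM (0.74 ± 0.129, adjusted p = 0.00111), also without overlap. STAT3 rose from 113 ± 6.92 to 144 ± 7.33 CPM (0.35 ± 0.0673, adjusted p = 0.00216). Lower were FBH1, a DNA helicase of recombination (103, 98.7, 101 and 99.3 against 74.6, 71.2, 68.6 and 72.8 CPM; -0.48 ± 0.0481, adjusted p = 6.74e-06), and THAP7, a chromatin-associated repressor (34.1, 28.8, 31.7 and 35.9 against 20.2, 26.4, 22.3 and 24.8 CPM; -0.48 ± 0.0878, adjusted p = 0.00147). THAP7 overlaps THAP7-AS1 and FBH1 shares its peak with ANKRD16. HMCN1, an extracellular matrix protein, was higher (0.67), and KRT8 was lower (-0.24), a call that 14 of 23 other analyses lost. The small GTPase gene RAB19 was lower too (-0.87) at 56 to 107 reads a group, and is named after its values were seen.

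In dexamethasone, 59 of the 200 genes were higher (29.5%) and 37 lower (18.5%) in siBCOR than in siNON cells, where 20.7% of all genes were higher and 18.8% lower. Higher in both treatments were 13 genes (6.5%, against 4.32% of all) and lower in both 8 (4%, against 6.46%), as the scatter of the 2 depletion effects shows. Called in dexamethasone and not in vehicle were 75 (37.5%, against 28.6% of all), and called in vehicle and not in dexamethasone 6 (3%, against 6.25%). The difference between the treatments is the interaction tested below. Both depletion effects and both hormone responses share libraries, so their values are set side by side and not correlated.

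**Figure D5:**
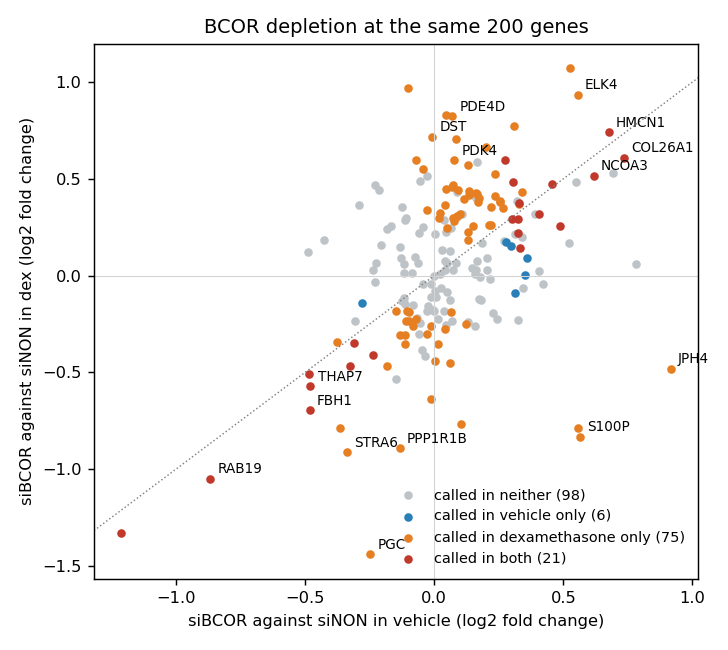
Log2 fold change of siBCOR against siNON in dexamethasone (y axis) and in vehicle (x axis) for 200 genes, coloured by the treatment in which the gene was called. NCOA3, COL26A1 and HMCN1 are higher and FBH1 and THAP7 lower in both, and S100P is called lower in dexamethasone (-0.83) and not called in vehicle.

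The count of higher genes moved with single control libraries. With siNON dex replicate 1, 2 or 3 left out, 37, 37 and 38 genes were higher, where 12.6%, 12.4% and 11.6% of all genes were. With replicate 4 left out 69 were higher, and 27% of all genes. With both libraries that stand apart left out, 68 were higher and 59 lower, where 26.5% and 27.3% of all genes were.

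Genes that the hormone raised moved both ways. The siNON dex libraries that picked these genes are also the baseline of this comparison, so the counts are a description. How all genes that the hormone raised divide was not counted. Of the 56 raised in siNON cells, 11 were higher and 21 lower after depletion in dexamethasone, and 24 were not called. Of the 19 raised at least 2-fold, 4 were higher and 10 lower, and 4 and 7 of the 15 that passed the filter without their dex libraries. Higher were PDK4 (0.59 ± 0.093, adjusted p = 0.000224), TIPARP (0.38 ± 0.102, adjusted p = 0.00882), WNT16 (0.35 ± 0.0731, adjusted p = 0.00198) and ZFAND5 (0.36 ± 0.0708, adjusted p = 0.00121). In PDK4, TIPARP, WNT16 and ZFAND5 all 4 siBCOR dex libraries were above all siNON dex libraries. Among the 10 lower were S100P (-0.83 ± 0.0953, adjusted p = 1.24e-05), PPP1R1B (-0.89 ± 0.138, adjusted p = 0.000202), CHST3 (-0.47 ± 0.0893, adjusted p = 0.00109), JPH4 (-0.48 ± 0.139, adjusted p = 0.0135), EP400 (-0.45 ± 0.158, adjusted p = 0.0325) and PNMT (-0.35 ± 0.131, adjusted p = 0.0458). EP400 and PNMT overlapped between the groups, and their calls were lost in 5 and 8 of 23 other analyses, JPH4 in 1. With the 2 libraries that stand apart left out, the depletion difference of EP400 was -0.63 (adjusted p = 0.000177). PER1 (-0.22 ± 0.126, adjusted p = 0.17) and SSTR2 (0.03 ± 0.0803, adjusted p = 0.803) were not called. METTL7A, at 76, 75.4, 79.2 and 66.4 CPM in siNON dex and 52.5, 54.8, 55.8 and 55.5 in siBCOR dex, was lower without overlap (-0.44 ± 0.0728, adjusted p = 0.000345).

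Of the 59 higher genes 48 were not among those the hormone raised in siNON cells. ELK4, an ETS factor that works with serum response factor, stood at 32.5, 33, 29.6 and 49.1 CPM in siNON dex and 71.1, 63.5, 72.1 and 68 in siBCOR dex (0.93 ± 0.202, adjusted p = 0.0025), and at 32.9, 34.1, 54.6 and 33.4 and 63.2, 35, 69.3 and 60.4 in vehicle (0.56 ± 0.201, adjusted p = 0.067). Its highest siNON libraries were vehicle replicate 3 and dex replicate 4, and without these the dexamethasone difference was 1.08 (adjusted p = 1.59e-05). PDE4D was higher (0.82 ± 0.199, adjusted p = 0.00503; without these 2 libraries 0.94, adjusted p = 3.4e-05). DST, a linker of the cytoskeleton (0.72), FAM199X (0.77), REL, an NF-kB subunit (0.70, lost in 4 of 23 other analyses), and NCOA3 (0.52) were higher, and STRA6 (-0.91), FBH1 (-0.70) and THAP7 (-0.57) lower. PGC was lower (-1.44), with 437 reads over siNON dex and 176 over siBCOR dex.

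The difference between the 2 hormone responses was called at these peaks in 1 gene, S100P, where the response was smaller after depletion (interaction -1.40 ± 0.257, adjusted p = 0.0472 by edgeR's quasi-likelihood test). Over all genes 0.0183% were called higher and 0.0791% lower. S100P had only 47 reads over siNON vehicle and 67 over siBCOR vehicle, and its call was lost in 17 of 22 other analyses, at log2 values of -1.68 to -1.21 and adjusted p of 0.00414 to 0.19. Without siNON dex replicate 4, 20 genes were called higher and 18 lower (8.70% and 6.62% of all genes), and without that library and siNON vehicle replicate 3, 16 and 12 (7.16% and 3.64%). The value for JPH4 was also -1.40 but not called (adjusted p = 0.173). An unadjusted p under 0.05 was found in 45 of the 200 genes and 3164 of all 16432, and DESeq2 called 2 higher and 2 lower (0.134% and 0.151% of all genes).

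Rises were found at each position of the peak. With the centre upstream of the start 27 of 92 tested genes rose in siNON cells (29.3%), 13 at least 2-fold, and with it downstream 29 of 108 (26.9%), 6 at least 2-fold. With it within 250 bp 18 of 60 rose (30%), and farther out 38 of 140 (27.1%). With a dex-enriched peak that is not at a promoter within 50 kb of a start 17 of 40 rose (42.5%), and without one 39 of 160 (24.4%). Other promoter peaks were not counted as neighbours, although those of PNMT and PPP1R1B, for example, lay 38888 bp apart. Such a neighbour lay near PDK4, CHST3, ZFAND5, ITGA6 and NCOA3, and not near S100P, TIPARP, WNT16 or PER1. None of these differences between positions was tested.

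In 19 of the 22 pairs that share a peak both genes were tested. Both were called in siNON cells in 1 pair, where FBH1 rose (0.16, a call that 9 of 23 other analyses lost) and ANKRD16 fell (-0.52). The zinc finger gene ZNF22 was not called (0.20) beside C10orf25, which rose (1.83, named after its values were seen).

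The 200 tested genes at these peaks were 1.22% of all 16432 tested, and gene lists are set beside that share. The lists were chosen with earlier results of these data known, so the shares are a description only. Of 42 tested genes on a list of glucocorticoid-induced genes 33 rose and 1 fell in siNON cells, and likewise 33 and 1 in siBCOR cells. Of that list PDK4, PER1, S100P and TIPARP (9.52%) were at these peaks. Of 18 circadian clock genes (6 rose, 3 fell) PER1 was the one at a peak, and of 16 PRC1.1 genes and BCL6 partners (1 rose, 1 fell) KDM2B. Of 56 adhesion and migration genes 11 rose and 13 fell, and ITGA6 and NRP2 had a peak. Of 80 developmental genes that Polycomb complexes typically hold, 6 rose and 57 fell, and PAX6, an eye and brain regulator, was the one with a peak and was not called (-0.24). Of 20 genes of GR and its coregulators (4 rose, 5 fell) NCOA3 had a peak, of 21 NF-kB genes (5 and 1) REL, of 33 replication and mitosis genes (5 and 1) the thymidylate synthase TYMS, and of 25 stress genes (4 and 5) the chaperone HSPA5. REL, TYMS and HSPA5 were not called in siNON cells. The lists of cholesterol synthesis, growth control, immediate early and ribosomal protein genes had no member at these peaks.

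RefSeq's promoter table matched 189 of the 234 genes, with 324 windows of 300 bases (250 before to 50 after a start). The full response element (GNACA, 3 free bases, TGTNC, searched on both strands like each motif here) was in 3 of the 324 (0.926%), at WNT16, GPR1 and the noncoding LNCOG. It was in 137 of all 35116 promoter windows (0.39%) and in 10 of 4050 at shared peaks alone (0.247%). GPR1, a chemerin receptor, rose in siNON cells (0.58), and LNCOG was not tested. The half-site AGAACA was in 14.5% of the windows, 14.8% of all and 9.26% at shared peaks. The GC box GGGCGG was in 48.8%, against 45.0% of all and 66.8% at shared peaks. The AP-1 motif TGANTCA was in 8.02%, 7.71% and 5.28%, and the ETS motif CCGGAAG in 8.02%, 10.3% and 13.6%. Several windows belong to 1 gene and some overlap, and most peak centres lie outside these windows. A match is a string of letters and not a shown site, and the half-site can be part of a full element.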

How the data were processed

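BCOR ChIP-seq (2 libraries a treatment, input chromatin as control) and poly(A) RNA-seq (16 libraries, 4 biological replicates a group per the labels' protocols, although the series text names 3) were used. Per the submitters' processing notes FastQC, Trimmomatic, TopHat2, Bowtie 0.12.9, HOMER 4.10.3 and bedtools were used with build hg19, and their roles are not given. The deposited peak lists hold positions only, since the score in them is 0 for every peak in all 3 lists, and whether HEK293-GR is 1 clone is not given in the sources used here. Per the file headers, the authors counted reads over exons of 65572 RefSeq transcripts and deposited them as raw counts. Of these, 134 transcripts carry no gene name (0.0664% of counts) and stayed out of the tests. All value columns were matched to labelled samples.

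Each of 27896 gene symbols was represented by its most-read transcript, giving 18580294 to 28054808 counts a library. After edgeR's filter on low counts (CPM minimum 0.444) 16432 genes were fitted over all 16 libraries with edgeR 4.0.16 (R 4.3.3, TMM scaling, quasi-likelihood test, 4 group means), and p-values were adjusted by Benjamini-Hochberg over all genes in each of 5 comparisons, called at 0.05. CPM values are scaled by TMM. Log2 fold changes are given ± standard error, and group means ± SD. Intervals of shares are Wilson 95% intervals. Counts of the siNON hormone response were simulated for 16432 genes, with 80 changed 1.5-fold, 80 changed 2-fold and 40 changed 4-fold. The test recovered 90%, 97.5% and 100% of these, with 17 false calls. These shares hold for the simulated changed genes only. The changed genes were drawn only from those with a mean over 50 counts. Recovery was therefore not measured for genes with few reads, and it may be lower for such genes at the peaks.

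Alternatives were DESeq2 1.42.0, its size factors, no filter, 2 groups only, the transcript at the peak, other distances, a replicate block and leaving out libraries. Removal of siNON dex replicate 4 and siNON vehicle replicate 3 together was chosen after seeing the data. The members, gene lists and tests were chosen with earlier results of these data known. Genes were named by a rule: BCOR and NR3C1, the 12 largest called changes in each direction of the 4 comparisons with a mean of at least 50 counts, called interactions, list members, and genes with 2 peaks. Other genes named (such as PGC, SPINK13, ELSPBP1, GPR1, RAB19, and partners that share a peak) were chosen after their values were seen. RefSeq promoter windows are from GRCh38.p14. The sequence of the hg19 peaks was not used here.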

Additional observations from a re-analysis of the deposited data

Results flagged for a closer look

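Within groups of 4 libraries, a single library lay far from the other 3 in 8 of 96 groups checked over 24 genes, by Dixon's test. Chance flags about 1 in 20 groups. In siNON dex replicate 4, CHST3 (107.6 CPM), EP400 (210.6 CPM) and STAT3 (167.8 CPM), all raised by the hormone, were each lower than in the other 3 replicates. In siNON vehicle replicate 3, ELK4 was higher (54.6 CPM), and ZFAND5 was lower in siNON dex replicate 3 (209.2 CPM). PNMT lay apart in siBCOR vehicle replicate 1 (0.631 CPM), METTL7A in siNON vehicle replicate 2 (53.3 CPM) and NRP2 in siBCOR vehicle replicate 2 (43.2 CPM).

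The hormone responses of S100P in siBCOR and siNON cells differed by a tested interaction (log2 -1.40, adjusted p = 0.0472 by edgeR's quasi-likelihood test), with all 4 siBCOR dex libraries under all 4 siNON dex libraries. This call was lost in 17 of 22 alternatives.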

How the results depend on the processing

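Of 3357 recomputed gene values 3099 kept direction and call, 257 kept direction and lost the call, and 1 reversed: the siBCOR response of ARMCX4 was 0.0267 with the transcript at the peak in place of -0.26. Of 146 gene results, 102 passed the threshold under all alternatives.

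With single libraries left out, the hormone raised 48 to 60 genes in siNON cells (19 to 21 at least 2-fold) and lowered 8 to 19, and raised 51 to 70 (18 to 21) and lowered 13 to 22 in siBCOR cells. Over all genes tested 8.29 to 12.5% rose (2.38 to 2.52% at least 2-fold) and 6.88 to 11.9% fell in siNON cells. In siBCOR cells 7.94 to 14.5% of all rose (2.43 to 2.62%) and 9.55 to 14.1% fell. Depletion gave 11 to 25 higher and 5 to 14 lower in vehicle, 37 to 69 higher and 26 to 50 lower in dexamethasone, and 0 to 20 higher and 0 to 18 lower interactions. Over all genes depletion gave 5.38 to 10.6% higher and 5.56 to 12.2% lower in vehicle. In dexamethasone it gave 11.6 to 27% of all genes higher and 13.7 to 22.3% lower. Interactions were 0 to 8.70% higher and 0.0121 to 6.62% lower over all genes. The siNON count of lower genes was 19 without siNON dex replicate 4. The siBCOR count of lower genes was 14 without siBCOR dex replicate 1, siBCOR vehicle replicate 1 or siBCOR vehicle replicate 4, and 13 without siBCOR dex replicate 2. Both interaction extremes came without siNON dex replicate 4, and the lower count was 0 without any other single library but siNON vehicle replicate 2. The cause was not tested.

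Leaving out both siNON dex replicate 4 and siNON vehicle replicate 3, depletion gave 28 higher and 17 lower in vehicle and 59 lower in dexamethasone, and interactions were 16 higher and 12 lower. With 2 groups only, depletion in vehicle gave 11 higher and 4 lower (4.55% and 5.05% of all genes). DESeq2 gave 18 lower in siNON cells (6.78% of all genes) and 2 higher and 2 lower interactions (0.134% and 0.151%). With DESeq2 size factors, or with no filter, lower interactions were 0 (0.0243% and 0.0168% of all genes).

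With peak centres within 500 bp (115 genes tested), the siNON response was 28 higher (8 at least 2-fold), the siBCOR response 29 (8), and depletion in dexamethasone 34 higher and 24 lower. Within 2000 bp (324 tested), siNON had 109 higher (41) and 27 lower, siBCOR 114 higher (42) and 34 lower, depletion in vehicle 31 and 18, depletion in dexamethasone 70 lower, and interactions 4 lower. As shares of the tested genes, 24.3% and 33.6% rose in siNON cells, against 28% within 1000 bp and 10.7% of all genes. The shares over all genes tested stay as given above for each comparison, since only the genes at the peaks change. With 1 start per gene, 178 dex-enriched peaks were at promoters.

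The replicate numbers did not pair the libraries: of 24 same-numbered pairs across groups 6 correlated above 0.1 (median -0.00709, range -0.526 to 0.503). With the replicate block, siNON cells had 55 higher and 10 lower, siBCOR cells 60 and 18, depletion in vehicle 19 and 7, in dexamethasone 58 and 39, and interactions 0 and 0.

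Low depth limits PGC, SPINK13, JPH4 and S100P in vehicle, where few reads set the size of the fold. ChIP lists carry no values per library, so binding strength could not be compared.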

Other observations

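Noncoding genes made up 18 of the 200 tested genes. In siBCOR cells 8 of these rose with dexamethasone and 1 fell (44.4% and 5.56%), where 10.5% and 12.5% of all genes tested did. Of the 182 protein-coding genes at these peaks 54 rose there (29.7%) and 21 fell (11.5%). The share over all noncoding genes was not counted. In siNON cells 1 noncoding gene rose and 1 fell. Several of the noncoding genes lie head to head with a coding gene at the same peak, and genes of each pair may share reads where they overlap. KLF3-AS1 rose in siBCOR cells (log2 fold change 0.84) while KLF3, a transcriptional repressor, fell (-0.31, a call that 11 of 23 other analyses lost). DLG1-AS1 rose (0.72) beside DLG1, a scaffold protein of cell polarity, which was not called (0.22). BDNF-AS rose (0.72) and its neighbour LIN7C, a scaffold protein of cell junctions, was not called (0.40). THAP7-AS1 (0.54) and THAP7 (0.25, a call that 14 of 23 lost) both rose. The choice of these genes followed a look at their values. Whether the members of a pair differ was not tested.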
